A study of Rattus norvegicus with 2 samples.

Results

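The CD-named surface antigens are the genes whose symbol is Cd with a cluster of differentiation number, such as Cd44 and Cd93. They were taken by symbol from the array's platform annotation, as Cd, 1 to 3 digits and a suffix of letters and digits. Co-receptor, CD3, SLAM-family, CD28, invariant chain, Cd63 and Cd1d1 genes were left out by the rule, as were Cd2, Cd5, Cd6, Cd96 and Cd226. The rule gave 46 genes with 59 probe sets, of 14217 genes that had a probe set annotated with 1 symbol. It used names only and no measured value, but the members were chosen with earlier results of these data known. Cd2ap and Cd2bp2 passed it although they are intracellular proteins named after their partner CD2, and Cd244l1 passed it although Cd244 is excluded.

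Natural killer (NK) cells, lymphocytes that kill infected or altered cells, were sorted from the spleens of PVG.7b rats aged 8 to 12 weeks. Cells bearing CD5, CD68, CD45RA, the kappa light chain of immunoglobulin or the αβ T cell receptor had first been removed with antibodies and magnetic beads. CD3-negative, NKR-P1A-positive cells were then sorted into one population positive for the inhibitory receptor NKR-P1B but not for Ly49s3, and another positive for the activating receptor Ly49s3 but not for NKR-P1B, each more than 90% pure per the labels. The study used 9 rats, and the labels do not say how their cells or RNA were pooled. Each population was hybridised to 1 Affymetrix rat expression array, so there are no replicates, no p-value was computed, and every difference below describes these 2 arrays, called the NKR-P1B+ and the Ly49s3+ sample.

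A CD number is given to a leukocyte surface molecule that a set of monoclonal antibodies recognises, so the name says nothing of structure or function. The members include adhesion receptors, tetraspanins that organise other proteins in the membrane, costimulatory ligands and receptors, inhibitory receptors with tyrosine-based motifs, complement regulators and scavenger receptors. Many are used to tell apart lymphocyte subsets or their stages of activation.

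Signal is the deposited intensity in arbitrary units. A gene was represented by its brightest probe set and was counted as measured if at least 1 array was above a floor of 20.4, the median of all signals. A signal under the floor was raised to it before a ratio was taken, and such a ratio is written as "at least". Differences are log2 signal in the NKR-P1B+ sample minus log2 signal in the Ly49s3+ sample. The array medians were 19.6 and 21.3. Klrb1b, which encodes the sorted NKR-P1B, had 1399 in the NKR-P1B+ sample and 29.4 in the Ly49s3+ sample. All 8 NK marker genes on the array were above the floor in both samples, among them the sorted NKR-P1A gene Klrb1a (3740 and 3813) and the perforin gene Prf1 (4024 and 3006). In bulk RNA of this kind, fewer cells of a type and less RNA per cell cannot be told apart.

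Of the 46 CD-named genes, 27 were measured, 25 of them above the floor on both arrays. The NKR-P1B+ sample had the higher signal for 22 of the 27 (81.5%), against 47.6% of all measured genes, and the Ly49s3+ sample for 5. Cd2bp2, one of the 22, was level at 432.9 and 432.6, and its sign turned with quantile normalisation, a loess trend subtracted, hybridisation spike scaling or the mean over probe sets. Others of the 22, namely Cd164, Cd99l2, Cd300c2, Cd244l1 and Cd86, differed by less than the SD of probe sets in their signal range, given below. So did Cd320 and Cd55 of the 5. At least 1.5-fold higher in the NKR-P1B+ sample were 9 members, namely Cd93, Cd83, Cd22, Cd24, Cd300a, Cd99, Cd37, Cd151 and Cd44. They are 33.3% of the measured members, and of all 9114 measured genes 5.11% were that far apart in that direction. With signals under the floor raised to it, Cd82 alone was at least 1.5-fold higher in the Ly49s3+ sample, 3.70% of the members against 5.73% of all genes. Only Cd93 was at least 2-fold apart toward the NKR-P1B+ sample, 3.70% against 1.78% of all genes, and no member was toward the Ly49s3+ sample, against 1.21% of all genes.

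The median difference of the 27 members was 0.24, and that of all measured genes −0.02 with an SD of 0.42 across genes. Members ranged from −0.59 to 2.67, and of the 25 above the floor on both arrays 15 were within 1.5-fold, 10 of them within 1.2-fold. Cd55 and Cd86, above it on 1 array only, have lower bounds and no such limit. These values are relative to the deposited scale. When the arrays were scaled to the 17 poly-A spike probe sets above the floor, the median of all genes became 0.50 and that of the members 0.69, and 20 of 29 members were at least 1.5-fold higher in the NKR-P1B+ sample and 0 in the Ly49s3+ sample. The same scaling gave 38.0% and 1.03% of all genes.

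**Figure D1:**
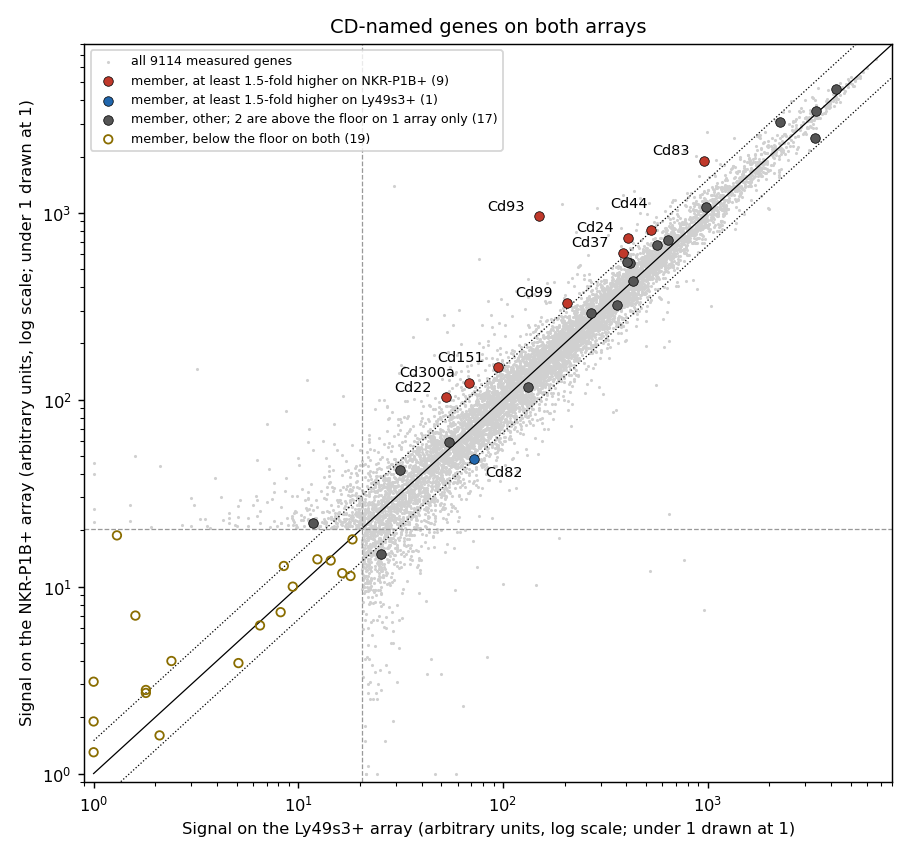
Signal of each gene in the Ly49s3+ sample (horizontal) and the NKR-P1B+ array (vertical), both in arbitrary units on log axes. Grey points are all 9114 measured genes, large points the CD-named genes, the solid line equality, dotted lines 1.5-fold and dashed lines the floor of 20.4. The 9 red points lie above the upper dotted line, with Cd93 farthest from it, and the 19 open points lie below the floor on both arrays.

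**Figure D2:**
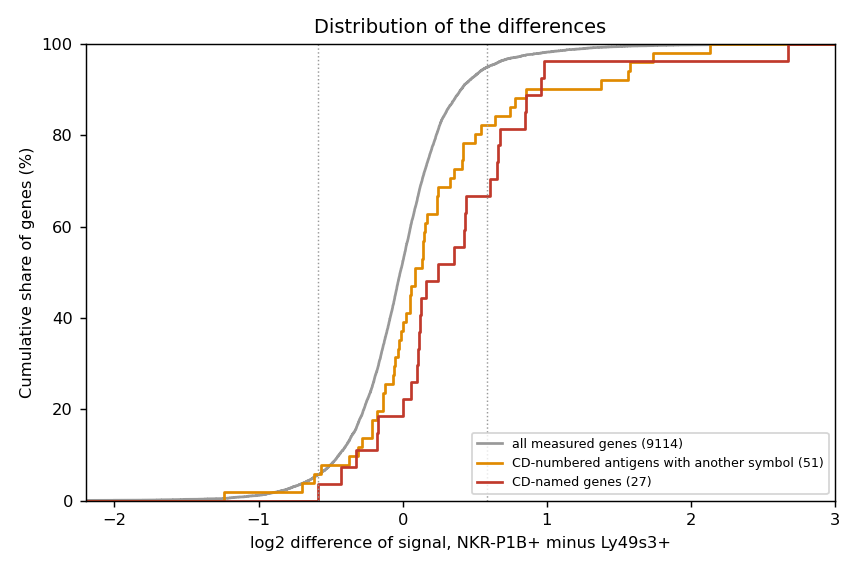
Cumulative share of genes (vertical, percent) by log2 difference between the arrays (horizontal), for the CD-named genes, for CD-numbered antigens with another symbol and for all measured genes. Dotted lines mark 1.5-fold. The curve of the 27 CD-named genes lies to the right of that of all genes over most of its length, with medians of 0.24 and −0.02.

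With 1 array per population, each difference was set against the spread between probe sets of the same gene. Over 1993 genes with 2 probe sets above the floor on both arrays, it came to an SD of 0.27 log2 for a single probe set. By the signal of the dimmer probe set the SD was 0.32 below 64 (864 pairs) and 0.23 from 64 to 256 (803 pairs). It was 0.17 from 256 to 1024 (284 pairs) and 0.10 above 1024, where it rests on 42 pairs only. A member was placed in a range by the mean signal of its brightest probe set. Differences between animals, between sorts and between hybridisations are not in this SD. It says how far probe sets of the same gene differ on these arrays and nothing of other animals. The spike probe sets give another spread on the same arrays. The log2 differences of the 17 poly-A spike probe sets ran from −0.97 to 0.21, and those of 18 hybridisation spike probe sets from −0.14 to 0.22.

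**Figure D3:**
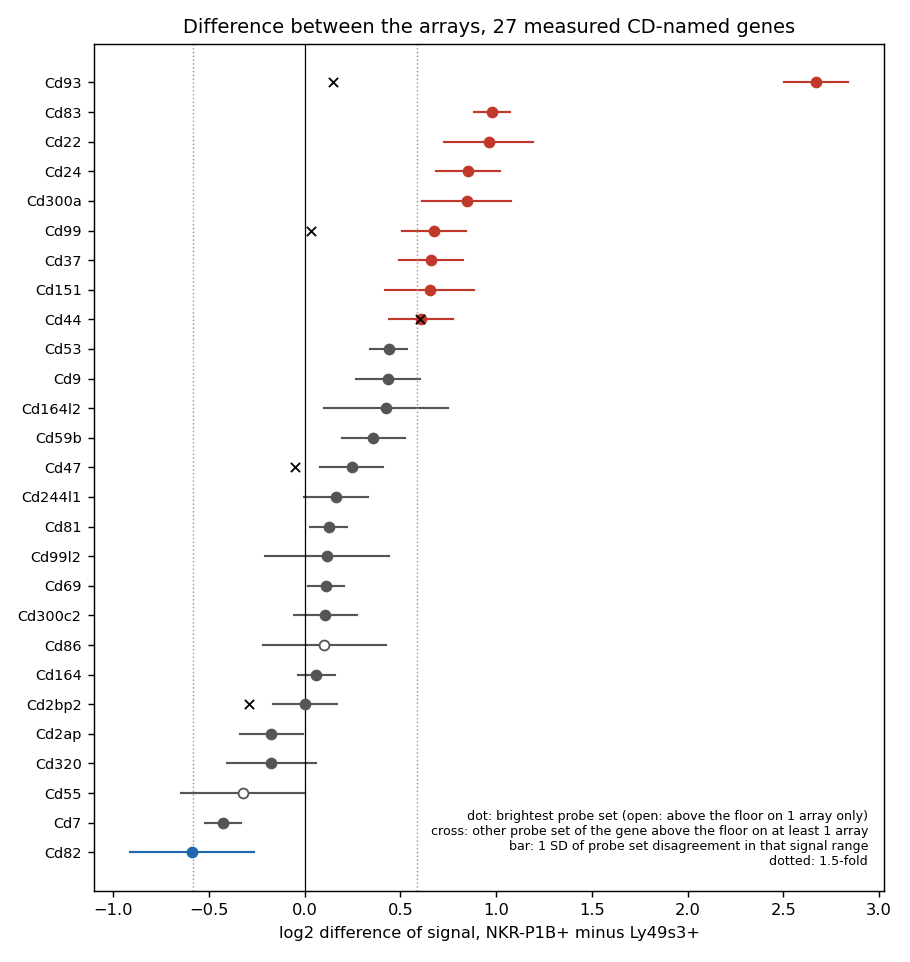
The log2 difference of each of the 27 measured members (horizontal, NKR-P1B+ minus Ly49s3+). Dots are the brightest probe set with a bar of 1 SD of probe set disagreement in that signal range, open dots are members above the floor on 1 array only, crosses are other probe sets of the gene, and dotted lines mark 1.5-fold. The crosses of Cd93 and Cd99 lie near 0, away from their dots, and that of Cd44 lies on its dot.

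Adhesion and activation antigens made up 10 of the members, and the 8 that were measured all had the higher signal in the NKR-P1B+ sample, with a median of 0.43. The differences of Cd164 and Cd99l2 were smaller than the SD of probe sets in their signal range. Cd93, Cd24, Cd99 and Cd44 were at least 1.5-fold apart. Cd93 encodes a transmembrane glycoprotein with a C-type lectin domain, found on several cell types, among them endothelial and myeloid cells and some immature lymphocytes. Its signal was 958 in the NKR-P1B+ sample and 150.3 in the Ly49s3+ sample, 6.37-fold apart, and it was in place 4 from the top of the 9114 measured genes. Its other probe set had 23.7 and 21.4, close to the floor, with a difference of 0.15 against 2.67. The mean over both was 1.41.

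Cd24, a small sialoglycoprotein held in the membrane by a lipid anchor, had 736.7 in the NKR-P1B+ sample and 408 in the Ly49s3+ sample. The difference of 0.85 (1.80-fold) put it in place 224 of all measured genes. Cd44, the main receptor for hyaluronan on leukocytes, had 809.6 and 531. Its second probe set had 199 and 131, and both gave a ratio of 1.52. They lie just above 1.5-fold, and quantile normalisation gave a difference of 0.584 and log2 of the value plus 32 one of 0.579, both just under it. Cd99, an O-glycosylated protein of leukocyte passage through endothelium, had 329.7 and 206.5 on its brightest probe set, 1.60-fold apart. Its other probe set had 53.7 and 52.5, a difference of 0.03, and the mean over both was 0.35, under 1.5-fold. Among Cd93, Cd99 and Cd44, which had a second probe set above the floor, only that of Cd44 gave a difference of the same size.

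Cd69, a C-type lectin that appears early in lymphocyte activation and retains cells in tissue by acting on the sphingosine 1-phosphate receptor, had 4586 and 4244. Cd164, a sialomucin, had 3517 and 3372. These differed by 1.08-fold and 1.04-fold. Cd47, the ligand by which cells inhibit phagocytes that bear SIRP alpha, had 673 and 568 on one probe set and 437.8 and 453 on the other, which differ in direction. Cd99l2, a relative of Cd99, had 59.3 and 54.7. Cd52, a short peptide with a lipid anchor, and the stromal antigen gene Cd248 were below the floor on both arrays, with signals from 0.8 to 2.8.

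The 6 tetraspanins on the array were all measured, and 5 were higher in the NKR-P1B+ sample. Tetraspanins cross the membrane in 4 passes and gather integrins and immune receptors into domains. Cd37, which is largely restricted to leukocytes, had 613 in the NKR-P1B+ sample and 388 in the Ly49s3+ sample, 1.58-fold apart. Cd151, a partner of laminin-binding integrins, had 149.5 and 95.1, 1.57-fold apart, and its difference of 0.65 was 0.51 with log2 of the value plus 32. The pan-leukocyte gene Cd53 had 3046 and 2248 on its 1 probe set, 1.36-fold apart. The difference was 0.44 in a signal range whose probe sets had an SD of 0.10. Cd9, also found on platelets, had 546 and 404, 1.35-fold apart. Cd81 had 1070 and 981, 1.09-fold apart.

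Cd82 went the other way, with 48.2 in the NKR-P1B+ sample and 72.5 in the Ly49s3+ sample, just over 1.5-fold higher in the latter. Its difference of −0.59 lay at the threshold and in the signal range with an SD of 0.32. Of 10 other settings, 6 took it below 1.5-fold, and none turned its sign. Of 19 other tetraspanin and tetraspanin partner genes on the array, 10 were measured, with a median of −0.12. Of these, 3 were higher in the NKR-P1B+ sample and 7 in the Ly49s3+ sample. Of the 7, Tspan2, Tspan5, Tspan6, Tspan17 and Ptgfrn were above the floor in the Ly49s3+ sample only, so the floor fixed their direction. With low signals at the floor, Tspan6 was the 1 measured gene of the 10 past 1.5-fold. It was at least 1.93-fold higher in the Ly49s3+ sample (39.3 against 12.2). Tspan32, a tetraspanin of blood cells, had 217.5 and 170.9, and was named after its values were seen.

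Of 9 costimulatory and checkpoint members, 3 were measured. Cd83, an immunoglobulin-superfamily protein of activated dendritic cells and lymphocytes, had 1901 in the NKR-P1B+ sample and 965 in the Ly49s3+ sample. That is 1.97-fold, a difference of 0.98 where probe sets had an SD of 0.10, and place 174 of all measured genes. Cd83 had 1 probe set, so the difference could not be compared with that of another. Cd7, an immunoglobulin-superfamily protein of T and NK cells, was 1.34-fold higher in the Ly49s3+ sample (3358 against 2499). Cd86, a ligand of CD28 and CTLA-4, was barely above the floor in the NKR-P1B+ sample at 21.9 and below it on the other at 11.8, so that the ratio is at least 1.07-fold. With a lower floor, at the 35th percentile, its difference was 0.89, past 1.5-fold. Its other probe set had 4.1 and 2.2.

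The other 6 members of that group were below the floor on both arrays. Cd80, the second ligand of CD28 and CTLA-4, had 1.3 and 0.5, and the receptor gene Cd40 1.9 and 0.9. Its ligand gene Cd40lg had 13.8 and 14.4. Cd200 had 6.2 and 6.5 on its brighter probe set, and Cd200r1, which encodes the inhibitory receptor for it, 18.8 and 1.3. The checkpoint ligand gene Cd276 had 11.4 and 18.0. No fold is given for these genes, since both sides are under the floor.

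The CD300 and sialic acid-binding receptors had 3 of 4 members measured, all higher in the NKR-P1B+ sample. Cd300a, an inhibitory receptor for lipids exposed on dying cells, had 123 in the NKR-P1B+ sample and 68.6 in the Ly49s3+ sample, 1.80-fold apart, at place 228 of all measured genes. Cd300c2, of the same family, had 290.6 and 269.6, 1.08-fold apart, which is less than the SD of probe sets in its signal range. Cd22, an inhibitory sialic acid-binding lectin best known from B cells, had 103 and 52.9, 1.95-fold apart, at place 180. Cd33, another such lectin of myeloid cells, was below the floor with 14.0 and 12.4.

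Because several of these genes are also markers of other cells, the markers of those cells are given beside them. Of 8 B cell marker genes on the array, Cd22 and Blnk were above the floor, Blnk in the NKR-P1B+ sample only (26.1 against 0.9), and 6 were below it on both, among them Ms4a1 and the member Cd79b (10 and 9.4). Their signals without the members summed to 46.3 and 37.4. Of 11 macrophage and monocyte markers, only Lyz2, the lysozyme gene, was above the floor. It had 356 in the NKR-P1B+ sample and 133 in the Ly49s3+ sample. The other 10 were below the floor on both arrays, among them the receptor gene Csf1r (14.8 and 14.7) and the members Cd14, Cd68 and Cd163. The list without members summed to 389.6 and 184.6, and Lyz2 alone made up most of both sums. Of 10 endothelial and stromal markers, Kdr had 54.1 and 11.8 and Vwf 23.9 and 30.9, and 8 were below the floor on both arrays, with sums of 150.3 and 110.7. The part of such cells in the differences of Cd93, Cd22, Cd83 and Cd300a was not tested.

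Further markers ran in both directions. Of 4 dendritic cell markers, the integrin gene Itgax, which NK cells of rodents also express, had 2281 and 1716, and Batf3 was at least 4.08-fold higher in the Ly49s3+ sample (83.2 against 4.2). The list summed to 2292 and 1801. Of 7 T cell markers, Cd6 had 273 and 179 and Cd5 92.7 and 40.8, Cd3g, named after its values were seen, ran the other way with 22.3 and 42.9, and the list summed to 430 and 347. Of 7 erythroid markers, Hbb had 276 and 153 and Epor 15.5 and 35.8, with sums of 324 and 222.5. Of 7 platelet markers, the brightest were Pf4 (30.9 and 26.6) and Treml1 (15.9 and 30.4), with sums of 82.1 and 90.1. Of 7 neutrophil and mast cell markers, Cpa3 alone was above the floor on an array (10 and 21.0), Mcpt1 had 10.2 and 14.1, and the list had sums of 43.0 and 53.1.

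Of 3 complement regulators, Cd59b, an inhibitor of the membrane attack complex, had 537 and 419, 1.28-fold apart. Cd55, which speeds the decay of complement convertases, was above the floor in the Ly49s3+ sample only, at least 1.25-fold higher there (25.5 against 15.0), and its other probe set had 6.9 and 4.2. Cd46, a cofactor of complement cleavage, was below the floor with 17.9 and 18.4. With a lower floor, at the 35th percentile, the difference of Cd55 was −0.77, past 1.5-fold.

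Of 8 myeloid and scavenger receptor members, only Cd320, the receptor that takes up vitamin B12 bound to transcobalamin, was measured. It had 117 in the NKR-P1B+ sample and 132 in the Ly49s3+ sample, 1.13-fold higher on the latter. The lipopolysaccharide co-receptor gene Cd14 had 11.8 and 16.4, Cd68 12.9 and 8.5, the haemoglobin scavenger gene Cd163 2.7 and 1.8 and the fatty acid receptor gene Cd36 3.1 and 0.9. Cd5l, Cd209f and Cd302 were likewise below the floor, with signals from 1.6 to 8.2. The B cell members Cd180 (7.0 and 1.6) and Cd79b were below it too. Over all 19 members below the floor on both arrays, the 23 probe sets ranged from 0.5 to 18.8, and a transcript that a probe set reads poorly cannot be told from one that is scarce.

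The intracellular partners of CD2 were close between the arrays. The adaptor gene Cd2ap had 319 and 360, and Cd2bp2, which also belongs to the splicing machinery, 432.9 and 432.6 on one probe set and 101 and 124 on the other. Cd244l1, a gene of the 2B4 family, had 718 and 642, 1.12-fold apart, while its second probe set had 8.1 on both arrays. Cd164l2 had 42.0 and 31.3, 1.34-fold apart at low signal. With the poly-A spike scaling Cd7, Cd2ap and Cd320, of the 5 members higher in the Ly49s3+ sample, became higher in the NKR-P1B+ sample, at 0.11, 0.36 and 0.36.

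Of 17 ligands and receptors that pair with members or belong to related families, 12 were measured, with a median of 0.11. Of these, 6 were higher on each array. Tcn2, which encodes the transcobalamin bound by the Cd320 product, was 4.02-fold higher in the NKR-P1B+ sample (99.3 against 24.7), whereas Cd320 itself differed by 1.13-fold in the other direction. Icos, a costimulatory receptor of the family of Cd28, which the rule excludes, was 2.60-fold higher there (1207 against 465). Plaur, the urokinase receptor, was 1.99-fold higher there (72.2 against 36.2). On the Ly49s3+ array Tnfsf4, the OX40 ligand gene, was 2.58-fold higher (60.7 against 23.5) and the hyaluronan receptor gene Hmmr 1.51-fold (35.4 against 23.5). Sirpa, the receptor gene for the Cd47 product, was at least 1.68-fold higher in the NKR-P1B+ sample (34.2 against 16.5), at low signal, and was named after its values were seen.

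Many antigens with a CD number carry another gene symbol, and a chosen list of such genes, which does not hold all of them, had 71 on the array. Of 51 measured, 31 were higher in the NKR-P1B+ sample and 20 in the Ly49s3+ sample, with a median of 0.08. Icos and Sirpa are in this list and in that of ligands and receptors above, and count in both. At least 1.5-fold higher in the NKR-P1B+ sample were 9 (17.6%). Among those above the floor in both samples the differences were largest for the integrin gene Itgb3 (250.0 against 57.0), the TRAIL gene Tnfsf10 (441 against 132.5) and the Fas ligand gene Faslg (1304 against 436.5), and Ccr2, named after its values were seen, has a bound of at least 2.96-fold (60.3 against 13.2) that cannot be ranked with them. At least 1.5-fold higher in the Ly49s3+ sample were 3 (5.88%), namely Il6st (165.6 against 70.0), Fcgr3a (102 against 62.9) and Alcam (72.2 against 47.1). The shares of 33.3% among CD-named genes, 17.6% in this list and 5.11% of all measured genes are given as counts on these arrays.

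Promoter sequences from RefSeq, on the GRCr8 build, run from 250 bases before to 50 after the annotated start. They were in the table for 22 of the 27 measured members and for 8 of the 9 that were at least 1.5-fold higher in the NKR-P1B+ sample, Cd93 being the ninth. The 4 of these 8 with the largest differences are printed, each read toward its gene, with matches to the searched motifs in capitals. Cd83 lies at chr17:21112628-21112927 on the minus strand, Cd22 at chr1:95259681-95259980 on the minus strand, Cd24 at chr20:48656227-48656526 on the plus strand and Cd300a at chr10:100428576-100428875 on the plus strand.
Cd83: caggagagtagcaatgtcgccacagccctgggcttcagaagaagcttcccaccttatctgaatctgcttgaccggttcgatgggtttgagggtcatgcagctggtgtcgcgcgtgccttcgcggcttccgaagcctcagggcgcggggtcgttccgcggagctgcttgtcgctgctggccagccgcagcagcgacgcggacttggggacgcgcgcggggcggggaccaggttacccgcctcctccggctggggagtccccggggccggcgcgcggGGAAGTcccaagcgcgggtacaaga
Cd22: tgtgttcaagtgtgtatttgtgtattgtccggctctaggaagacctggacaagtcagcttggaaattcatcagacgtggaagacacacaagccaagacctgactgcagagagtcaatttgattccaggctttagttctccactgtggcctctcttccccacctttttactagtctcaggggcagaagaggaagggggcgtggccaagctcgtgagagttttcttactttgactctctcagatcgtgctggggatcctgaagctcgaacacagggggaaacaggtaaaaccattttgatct
Cd24: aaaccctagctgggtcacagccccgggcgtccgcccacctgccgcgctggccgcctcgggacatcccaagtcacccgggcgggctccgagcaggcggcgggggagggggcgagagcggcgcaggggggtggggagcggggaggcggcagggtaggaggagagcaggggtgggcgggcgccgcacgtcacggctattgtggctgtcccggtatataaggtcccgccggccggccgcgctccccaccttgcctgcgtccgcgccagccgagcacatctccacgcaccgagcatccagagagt
Cd300a: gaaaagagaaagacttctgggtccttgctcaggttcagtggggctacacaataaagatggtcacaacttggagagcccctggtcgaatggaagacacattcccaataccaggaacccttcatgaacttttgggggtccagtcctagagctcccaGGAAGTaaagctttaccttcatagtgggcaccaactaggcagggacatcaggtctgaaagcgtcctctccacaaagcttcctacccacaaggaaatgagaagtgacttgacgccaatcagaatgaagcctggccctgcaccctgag

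The promoters of these members differed in base composition. That of Cd24 had 74.0% G and C with 34 CpG pairs and that of Cd83 68.0% with 33, while that of Cd22 had 48.7% with 6 and that of Cd300a 50.7% with 3. Over the 8 members the median was 61.0%, over the other 14 measured members with a promoter 63.8% and over all 27457 promoters of this length 52.3%. The last includes genes that were not measured, and the median over promoters of measured genes was not computed. A script searched both strands for 4 short motifs of lymphocyte transcription factor families, namely ETS as GGAAGT, RUNX as TGTGGT, T-box as GGTGTGA and AP-1 as TGANTCA. The letters GGAAGT were in 4 of the 8 promoters, in 6 of 22 of the measured members (27.3%), in 29.9% of the 7720 promoters of measured genes and in 22.8% of all. They begin at position 26 after the start in Cd83, at −96 in Cd300a, at −154 and −79 in Cd37 and at −121 and −14 in Cd44. The other 3 motifs were in none of the 8. Among promoters of measured genes the shares were 12.5% (RUNX), 3.42% (T-box) and 4.65% (AP-1). Among all promoters they were 16.9%, 3.81% and 7.33%. A match or its absence describes these letters in this window only.

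The 10 members at least 1.5-fold apart were set against 10 other settings of scale, floor and probe set. Cd93, Cd83, Cd22, Cd24, Cd300a and Cd37 were at least 1.5-fold higher in the NKR-P1B+ sample in all 10, with a lowest difference of 1.41 for Cd93, 0.94 for Cd83, 0.67 for Cd22, 0.80 for Cd24, 0.63 for Cd300a and 0.62 for Cd37. Cd151 and Cd99 were in 9 each, Cd44 in 8, and Cd82 was in 4 in its own direction. No sign turned among the 10. Not every setting could move every value. For Cd83, Cd22, Cd24, Cd300a, Cd37 and Cd151, each with 1 probe set, the mean over probe sets returns the reported value. The other floors and the limit to genes above the floor on both arrays also left these values unchanged, since their signals exceed each floor. Of the 4 settings that kept Cd82, only hybridisation spike scaling changed its value.

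**Figure D4:**
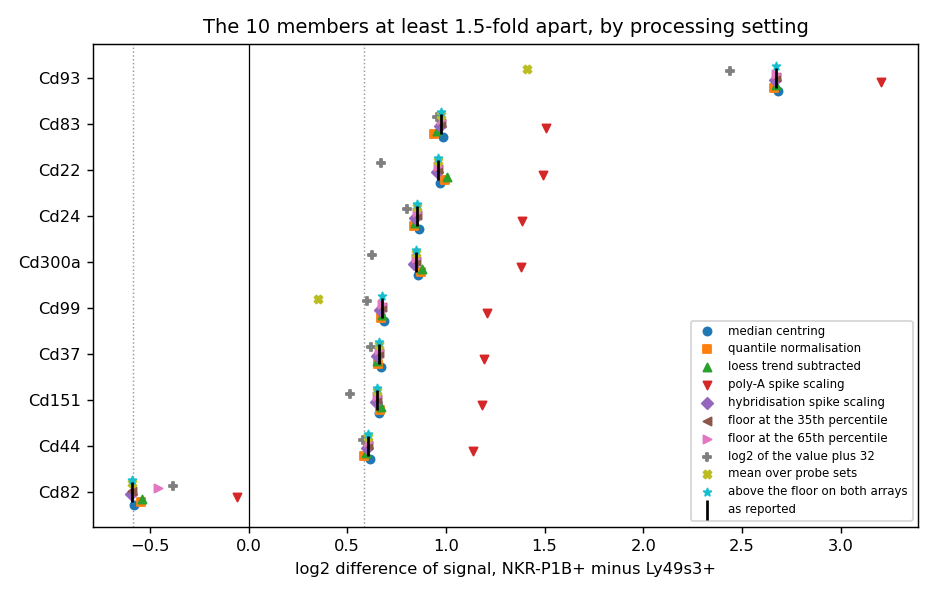
The log2 difference (horizontal, NKR-P1B+ minus Ly49s3+) of the 10 members at least 1.5-fold apart, as reported (black bar) and under 10 other settings (coloured symbols), with dotted lines at 1.5-fold. The poly-A spike scaling lies to the right for every gene, from 3.20 for Cd93 to −0.06 for Cd82, and the mean over probe sets lies well to the left for Cd93 (1.41) and Cd99 (0.35).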

How the data were processed

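Per the labels, biotinylated cRNA from 3 ug of total RNA was hybridised. The authors deposited 1 linear intensity per probe set and array, made with MAS5 per the submitters' processing notes. The MAS5 version, its detection calls and its scaling target are not stated there. Values were used as deposited, without centring, and the direction follows from the 2 labelled arrays. The number of arrays limits the precision. Of 31099 probe sets, 20832 had 1 gene symbol and 436 several, and only the former were used. All 46 members were found by gene number in a RefSeq table of GRCr8, with 0 symbols changed.

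Differences were computed in Python 3.11.15 with pandas 2.3.3, the loess alternative (span 0.3) with statsmodels 0.14.6, and checked on simulated data. The floor was the median of the non-control values of both arrays. Every measured member was named, those below the floor with their values or range, and of other lists up to 3 genes per direction at least 1.5-fold apart and the 2 brightest markers. Members, lists and settings were chosen with earlier results of these data known. No per-sample column was left unused.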

Additional observations from a re-analysis of the deposited data

How the results depend on the processing

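The count of 9 members at least 1.5-fold higher in the NKR-P1B+ sample was between 7 and 11 under the other settings, except poly-A spike scaling. It was 7 of 27 with log2 of the value plus 32, which gave 3.03% of all genes. With the floor at the 35th percentile it was 11 of 35 (6.90% of all genes). Poly-A spike scaling gave 20 of 29 and 38.0% of all genes. The count of 1 in the Ly49s3+ sample was 0 with median centring (5.53% of all genes), quantile normalisation (4.88%), a loess trend subtracted (4.96%) or poly-A spike scaling (1.03%). It was also 0 with the floor at the 65th percentile (3.46%) or log2 of the value plus 32 (2.49%). With the floor at the 35th it was 3 of 35, where 9.81% of all genes were that far apart. The count of 1 at least 2-fold higher in the NKR-P1B+ sample was 2 with the loess trend subtracted (2.01% of all genes), 9 with poly-A spike scaling (7.07%) and 2 with suffixes of letters and digits in any order, which adds Cd200r1l (54.3 and 22.4). The median of 0.24 was 0.69 with poly-A spike scaling, 0.18 and 0.30 with floors at the 35th and 65th percentiles, and 0.16 with the mean over probe sets. It was 0.36 over members above the floor on both arrays, with suffixes of at most 1 letter and 1 digit, or without the partners of CD2, and 0.30 with suffixes in any order or without Cd244l1. These last 2 were chosen after seeing the data. The poly-A spikes themselves differed by a median of −0.53 with a range from −0.97 to 0.21, and the hybridisation spikes by 0.01. Settings that add or leave out members change which genes enter the median. By construction, poly-A spike scaling moves genes well above the floor by the size of that spike median, toward the NKR-P1B+ sample. The mean over probe sets averages in the other probe sets of a gene. The cause of any further shift was not tested. Signals near the floor limit Cd55, Cd82, Cd86, Cd99l2 and Cd164l2, and Cd55, Cd86 and Cd164l2 were not measured with the floor at the 65th percentile. No paired analysis was possible because each population has 1 array.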
